A study of Mus musculus with 9 samples.

Results

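The cytokines of the IL-6 family and the colony-stimulating factors (CSFs) were examined in mouse skin after deletion of *Supt6*, which encodes the transcription elongation factor SPT6. The set was chosen by gene symbol and has 10 genes, namely the IL-6 family ligands *Il6*, *Il11*, *Osm* and *Lif*, the CSFs *Csf1*, *Csf2* and *Csf3*, and the receptor genes *Il6ra*, *Il6st* and *Osmr*. All 10 were among the 17943 genes of the count table, and all 10 passed the filter of at least 10 counts summed over the mice, as did 16426 genes in all. In *Supt6*-KO skin the transcripts of *Csf3*, *Osm*, *Il6*, *Csf2* and *Lif* rose, those of *Il6ra*, *Csf1* and *Il6st* fell, and *Il11* and *Osmr* did not pass the test. The fall was steepest for *Il6ra*, to 9.83% of the control level (a log2 fold change of -3.34, or -2.38 after correction for transcript length), while *Csf3* went from 4 counts over all control libraries to 461 counts over the *Supt6*-KO libraries. The call on *Il6st* was lost after the same correction (-0.14). *Osmr* was called higher with that correction (0.49) and lower when libraries were scaled by their totals alone (-0.84).

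IL-6 family ligands bind a specific receptor chain and signal through a shared one, gp130, which *Il6st* encodes. The receptor complex activates JAK kinases, and these activate STAT3 in particular. IL-6 uses the chain encoded by *Il6ra*, IL-11 that of *Il11ra1*, LIF that of *Lifr*, and oncostatin M mainly that of *Osmr* in the mouse. The CSFs are a functional group and not a sequence family. CSF1 maintains macrophages through the receptor encoded by *Csf1r*, which also binds IL-34, a keratinocyte product needed by Langerhans cells. CSF2 acts on granulocytes, macrophages and dendritic cells, and CSF3 is the main growth factor of neutrophils.

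RNA from whole skin was sequenced in 5 control and 4 *Supt6*-KO mice, taken on day 10 after the last injection. The study's text describes the *Supt6*-KO skin as lesional, so that the effects of lesion and deletion cannot be told apart. According to the study's methods, the *Supt6*-KO mice carried K14-CreERT and *Supt6* fl/fl and were given tamoxifen on consecutive days in the first telogen phase, and the controls were *Supt6* fl/fl mice given corn oil, whereas the sample labels call the controls WT. Both groups thus carried the floxed allele, but Cre and tamoxifen came only with the deletion, and the 3 cannot be told apart. The K14 promoter drives Cre in basal keratinocytes and related epithelia, while the libraries hold RNA of every cell type of the tissue, so that fewer cells of a type and less RNA per cell cannot be told apart. The age of these mice is not given in the sources used here. The deposited estimated counts gave library totals between 29627341 and 30491197 in the controls, with a median of 29870087, and between 30597189 and 30967107 in the *Supt6*-KO group, with a median of 30794136. Nothing in the labels places a mouse in a litter or a batch.

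*Supt6* itself was examined first as a check of the labels. It stood at 74.5, 56.6, 63.6, 91.1 and 96.7 CPM (counts scaled to a common library size, with edgeR's TMM factors) in controls 1 to 5 and at 28.6, 24.1, 21.9 and 28.4 CPM in *Supt6*-KO mice 1 to 4. Every *Supt6*-KO library lay below every control, at 33.7% of the control mean, a log2 fold change of -1.57 (SE 0.18, adjusted p = 1.3e-05), or -0.74 (adjusted p = 0.00019) when the transcript length trend described below was removed. The labels name the tissue as ear and the study's text as dorsal skin. Keratinocyte genes were abundant in the controls, with *Krt10* at 14300 ± 730 CPM (SD, n = 5) and *Krt14*, whose promoter drives the Cre, at 3380 ± 304 CPM. Cartilage genes were present too, with *Acan* at 154 ± 83.8 CPM, *Col9a1* at 85.0 ± 24.1 CPM and *Col2a1* at 72.9 ± 37.4 CPM, and *Matn1* at or near 0 in each library. All 5 cartilage genes tested fell, and their summed level was 395 ± 185 CPM in control and 37.9 ± 3.52 CPM (n = 4) in *Supt6*-KO skin. Skeletal muscle genes summed to 5170 ± 671 and 1180 ± 221 CPM, 6 of the 7 falling. The part of these tissues in the results below was not tested.

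Of the 10 genes, 5 were called higher and 3 lower at an adjusted p under 0.05 in the edgeR fit over all genes. Calls were very common in this comparison. Of all genes tested, 34.1% were higher and 36.8% lower, 71.0% in either direction, so that the share of the 10 genes that changed was not far from the background. By non-overlap of the groups the same 5 genes were higher and the same 3 lower, against 28.9% and 31.8% of all genes, 60.8% in either direction. The members differed in the size of the change. A larger rise than that of *Csf3* was seen in 0.317% of the genes tested, than that of *Osm* in 0.913%, and than that of *Il6* in 1.22%. A deeper fall than that of *Il6ra* was seen in 2.68%, while *Csf1* and *Il6st* had 20.4% and 23.9% of genes below them.

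**Figure D1:**
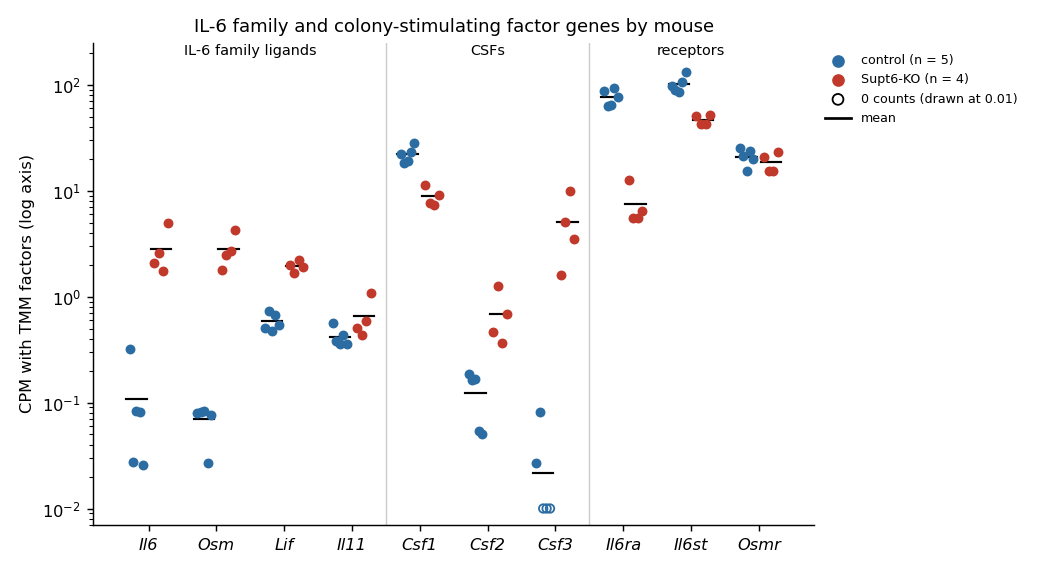
CPM of the 10 genes in each mouse on a log axis, with controls in blue, *Supt6*-KO mice in red, black lines at the group means and open points for libraries with 0 counts. The groups are separate for 8 genes, and overlap for *Il11* and *Osmr*.

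Among the IL-6 family ligands, *Osm* (NCBI gene 18413, chr11:4236420-4241026, GRCm38, plus strand) is made mainly by myeloid cells and T cells. Its libraries held 3, 3, 3, 1 and 3 counts among controls 1 to 5, and 43, 51, 59 and 118 among the *Supt6*-KO mice. The lowest *Supt6*-KO library thus held more *Osm* counts than the 5 controls together, which had 13. In CPM the level was 0.0698 ± 0.024 (n = 5) and 2.8 ± 1.03 (n = 4), a log2 fold change of 5.25 (SE 0.36, adjusted p = 6.7e-07). Because the control counts are so few, the ratio of the summed counts per TMM-scaled library size has an exact 95% interval of 23.6 to 78.2 around 41.1, covering counting error only.

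*Il6* (NCBI gene 16193, chr5:30013114-30019981, plus strand) encodes the cytokine after which the family is named. Its counts by control were 12, 1, 3, 3 and 1, and by *Supt6*-KO mouse 50, 54, 38 and 138. Control 1 held 12 of the 20 control counts, and mouse 4 stood highest among the *Supt6*-KO mice, at 4.96 CPM against 2.09, 2.59 and 1.74 CPM in mice 1 to 3. The log2 fold change was 4.68 (SE 0.58, adjusted p = 2.4e-05), and leaving out each mouse in turn gave 4.26 to 5.62, the highest without control 1.

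*Lif* (NCBI gene 16878, chr11:4257557-4272514, plus strand), best known for keeping embryonic stem cells undifferentiated, is the neighbour of *Osm*, with 16530 bases between the 2 genes. It was detected in every library, at 19, 27, 17, 25 and 21 counts in controls 1 to 5 and 48, 35, 48 and 53 in the *Supt6*-KO mice. The rise of *Lif* was smaller than that of its neighbour but even among the mice, the highest *Supt6*-KO library standing 1.31-fold above the lowest, where this range was 2.36-fold for *Osm* and 2.85-fold for *Il6*. Its level was 0.586 ± 0.116 CPM in control and 1.95 ± 0.215 CPM in *Supt6*-KO skin, a log2 fold change of 1.73 (SE 0.22, adjusted p = 3.2e-05).

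*Il11* (NCBI gene 16156, chr7:4772373-4782859, minus strand), a cytokine of stromal and epithelial cells, was read 21, 14, 13, 16 and 14 times in controls 1 to 5 and 12, 9, 13 and 30 times in *Supt6*-KO mice 1 to 4. The groups overlapped, and mouse 4 held nearly as many counts as the other *Supt6*-KO mice together. The log2 fold change of 0.65 (SE 0.33) did not pass the test (adjusted p = 0.096), and it was 0.00 when libraries were scaled by their totals alone.

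The windows of 250 bases upstream of the RefSeq start were searched for the letters of known factor sites, since the study concerned NF-κB. RefSeq windows were at hand for 8 of the 10 genes (9 windows, as *Il11* has 2), and not for *Osm* and *Csf3*. The upstream sequences of the IL-6 family ligands with an NF-κB match are shown on the plus strand of GRCm38.p6, 5′ to 3′, with matches in capitals. *Il6*, chr5:30012864-30013113, holds an AP-1 match, a C/EBP match and an NF-κB match, in this order. *Lif*, chr11:4257318-4257567, holds an AP-1 match and then an NF-κB match.
Il6: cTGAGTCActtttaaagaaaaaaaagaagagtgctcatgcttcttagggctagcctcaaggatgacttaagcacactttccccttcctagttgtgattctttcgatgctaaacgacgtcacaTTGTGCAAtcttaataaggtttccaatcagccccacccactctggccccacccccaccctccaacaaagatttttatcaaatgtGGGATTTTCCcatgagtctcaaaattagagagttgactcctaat
Lif: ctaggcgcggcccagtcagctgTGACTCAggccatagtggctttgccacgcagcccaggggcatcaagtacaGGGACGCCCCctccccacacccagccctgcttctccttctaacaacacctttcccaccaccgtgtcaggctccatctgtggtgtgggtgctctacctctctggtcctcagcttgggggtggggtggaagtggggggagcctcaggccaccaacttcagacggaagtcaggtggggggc

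The NF-κB consensus of 10 letters, read on both strands, began 44 bases before the start of *Il6* and 178 bases before that of *Lif*. It was also present upstream of *Csf1*, which fell, with its far end 154 bases before the start. That makes 3 of the 9 windows, against 7.25% of all 32851 RefSeq windows of the same length. The AP-1 letters TGANTCA were found upstream of *Il6*, *Lif* and *Il11*, against 6.75% of all windows, and the C/EBP letters TTGCNNAA upstream of *Il6* and *Csf2*, against 9.56%. The STAT letters TTCNNNGAA were in 0 of the 9 windows and in 7.02% of all, and TATAAA in 0 of the 9 and in 12.4% of all. No match of these motifs lay in the windows of *Il6ra*, *Il6st* and *Osmr*. The matches did not overlap one another, and they describe letters in these windows and not bound sites.

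Among the CSFs, *Csf3* (NCBI gene 12985, chr11:98701263-98703629, plus strand), encoding the neutrophil growth factor G-CSF, changed most of all 10 genes. Controls 1 to 5 gave 1, 3, 0, 0 and 0 counts, and *Supt6*-KO mice 1 to 4 gave 38, 106, 219 and 98. No control exceeded 3 counts, and each *Supt6*-KO library held at least 38. In CPM, *Supt6*-KO mice 1 to 4 stood at 1.59, 5.09, 10.0 and 3.52, the highest 6.31-fold above the lowest, which was the widest spread of the 10 genes within this group. The log2 fold change was 7.63 (SE 0.76, adjusted p = 5.6e-06), and it ranged from 7.07 to 8.87 when single mice were dropped, the highest without control 2, which held 3 of the 4 control counts. The control level is set by 4 counts, and the ratio of summed counts per TMM-scaled library size has an exact 95% counting interval of 88.2 to 838 around 227. Library totals alone gave a log2 fold change of 6.93.

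*Csf2* (NCBI gene 12981, chr11:54247271-54249667, minus strand) encodes GM-CSF. Controls 1 to 5 gave 7, 6, 6, 2 and 2 counts of it, and *Supt6*-KO mice 1 to 4 gave 11, 26, 8 and 19. The groups were separate by a single count in the raw values, 7 against 8, and by 0.187 against 0.366 CPM after scaling. The log2 fold change was 2.43 (SE 0.49, adjusted p = 0.00097). It was 1.21 with a correction for transcript length (adjusted p = 0.04), *Csf2* having the shortest transcript of the 10 genes at 800 bases.

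*Csf1* (NCBI gene 12977, chr3:107741048-107760469, minus strand) moved the other way. It stood at 22.2, 18.3, 18.9, 23.1 and 28.4 CPM in the controls and at 11.3, 7.72, 7.36 and 9.05 CPM in the *Supt6*-KO mice. All *Supt6*-KO values lay below the lowest control, at 40.0% of the control mean, and the log2 fold change was -1.32 (SE 0.18, adjusted p = 5.3e-05). The CSFs thus moved in opposite directions, *Csf1* down from a level well above 0 and *Csf3* and *Csf2* up from near 0.

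Of the receptor genes, *Il6ra* (NCBI gene 16194, chr3:89864059-89913196, minus strand), which encodes the chain that binds IL-6, fell most. It stood at 87.8, 62.7, 64.5, 92.8 and 76.2 CPM in the controls and at 12.7, 5.57, 5.53 and 6.43 CPM in the *Supt6*-KO mice. Mouse 1 stood highest of the *Supt6*-KO mice, still far below the lowest control. The means were 76.8 ± 13.5 and 7.55 ± 3.43 CPM, 10.2-fold lower in *Supt6*-KO skin, with a log2 fold change of -3.34 (SE 0.27, adjusted p = 1.6e-06), or -2.38 with the length correction (adjusted p = 1e-05).

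*Il6st* (NCBI gene 16195, chr13:112464070-112510086, plus strand), encoding the shared chain gp130, stood at 97.3, 90.0, 85.0, 107 and 131 CPM in the controls and at 50.9, 42.9, 42.4 and 51.6 CPM in the *Supt6*-KO mice. The groups did not overlap, and the *Supt6*-KO values were the most even of the 10 genes, within 1.22-fold. The mean was 46.0% of control, with a log2 fold change of -1.12 (SE 0.15, adjusted p = 3.8e-05). This call was lost with the length correction, which gave -0.14 (adjusted p = 0.23).

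*Osmr* (NCBI gene 18414, chr15:6813577-6874969, minus strand), encoding the chain specific to oncostatin M and IL-31, stood at 25.2, 21.1, 15.3, 23.5 and 20 CPM in the controls and at 20.8, 15.2, 15.4 and 23.3 CPM in the *Supt6*-KO mice. The groups overlapped almost fully, and the log2 fold change was -0.17 (SE 0.18, adjusted p = 0.42). Its direction depended on the scaling, since library totals alone gave -0.84 (adjusted p = 0.0079) and the length correction 0.49 (adjusted p = 0.02).

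These scalings matter throughout, because long transcripts were lower in the *Supt6*-KO libraries. Over 5 bins of equal size by transcript length, the median log2 fold change went from 0.88 in the shortest (204 to 1689 bases) to -0.86 in the longest (4999 bases or more). *Il6ra* (8639 bases), *Il6st* (8678 bases) and *Osmr* (5491 bases) belong to the longest bin, and *Csf2* and *Csf3* (1413 bases) to the shortest. With the trend removed, *Il6ra* still fell, and so did *Csf1*, by 0.92 on the log2 scale (adjusted p = 0.00024). The rises of *Il6*, *Osm*, *Lif* and *Csf3* were then 4.58, 5.13, 2.09 and 6.99. Library totals alone moved the median of all genes to -0.76, from -0.07 with TMM factors, and the split of calls over all genes from 5608 higher and 6050 lower to 2771 and 8970, and gave a rise for the same 5 genes, from 1.04 for *Lif* to 6.93 for *Csf3*.

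**Figure D2:**
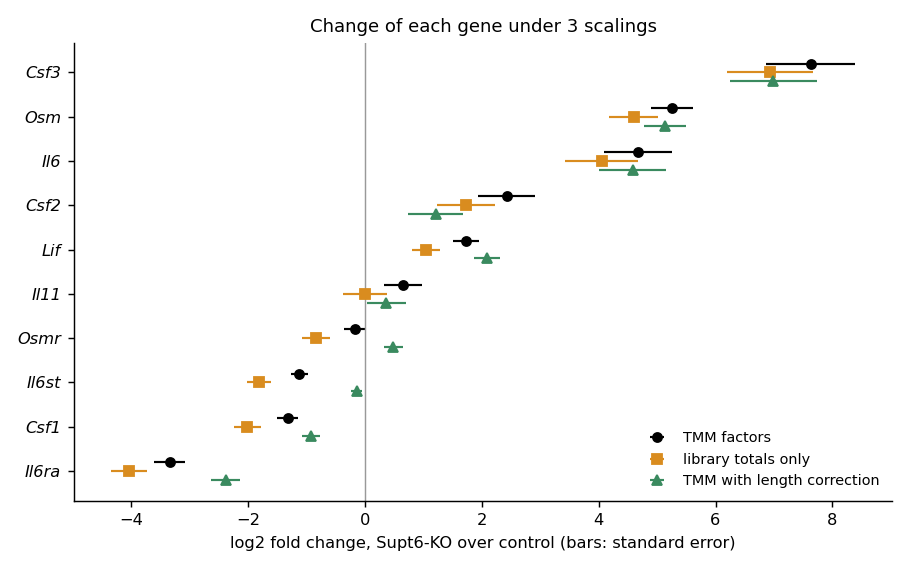
Log2 fold change of each gene, *Supt6*-KO over control, with its standard error, under TMM factors (black circles), library totals only (orange squares) and TMM with a correction for transcript length (green triangles). The 5 genes that rose stay right of 0 and *Il6ra* and *Csf1* left of it under each scaling, while *Osmr* lies on both sides.

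Ratios of 2 genes within a library do not depend on the scaling between libraries, although they do depend on the length trend. The counts of *Il6ra* per count of *Il6st* were 0.902, 0.697, 0.759, 0.869 and 0.581 in the controls and 0.249, 0.13, 0.131 and 0.125 in the *Supt6*-KO mice. This ratio fell 4.96-fold between genes whose longest GENCODE transcripts are of nearly equal length (two-sided exact permutation test, p = 0.0159, adjusted p = 0.0397 over 5 pairs), where 0.0159 is the smallest p that 5 against 4 mice can give. The lengths behind the counts are not known to be equal. In the controls, the deposited TPM and the CPM per kilobase of those transcripts put the 2 genes in opposite order.

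The counts of *Osmr* per count of *Il6st* went the other way. They were 0.26, 0.234, 0.18, 0.22 and 0.153 in the controls and 0.408, 0.355, 0.363 and 0.452 in the *Supt6*-KO mice, without overlap (exact permutation test, p = 0.0159, adjusted p = 0.0397). The ratio was 1.91-fold higher, a shift of the specific chain of the oncostatin M receptor relative to the shared one, between transcripts of unequal length. *Osmr* and *Il6st* were at -0.17 and -1.12 on the log2 scale, and at 0.49 and -0.14 with the length correction. The correction thus brought these genes closer together. *Osmr* over *Lifr*, the specific chains for oncostatin M and LIF, was 1.69-fold higher and overlapped (exact permutation test, p = 0.0476, adjusted p = 0.0595). *Csf1* over its receptor *Csf1r* was 1.43-fold higher (exact permutation test, p = 0.0317, adjusted p = 0.0529), and *Csf1* over *Il34*, the other ligand of that receptor, 1.27-fold higher (exact permutation test, p = 0.381, adjusted p = 0.381). The transcripts of these ligands differ in length (4176 and 1796 bases). With the length correction *Csf1* was at -0.92 and *Il34* at -1.95 on the log2 scale, further apart than without it. With 1 mouse fewer the exact test can hardly pass after adjustment, and most of the calls on these ratios were then lost.

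**Figure D3:**
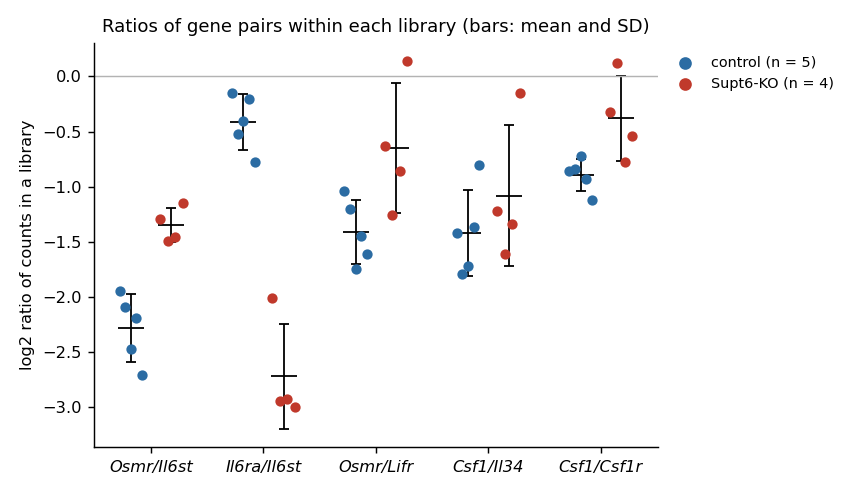
Log2 ratio of the counts of 2 genes within each library, for controls (blue) and *Supt6*-KO mice (red), with mean and SD in black. *Osmr*/*Il6st* is higher and *Il6ra*/*Il6st* lower in every *Supt6*-KO library than in any control, and the other 3 pairs overlap.

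Levels of different genes were compared per transcript length. In the TPM values that were deposited for the 5 controls and *Supt6*-KO mouse 4, *Il6ra* stood at 40.3 ± 10.1 TPM and *Il6st* at 32.1 ± 9.98 TPM in the controls, with overlapping ranges, above *Csf1* at 10.4 ± 3.23 TPM and *Osmr* at 7.42 ± 1.71 TPM, which overlapped each other. The remaining 6 genes lay at or below 0.63 TPM in every control. In CPM per kilobase of the longest protein-coding transcript the first 2 genes changed places, *Il6st* at 11.8 and *Il6ra* at 8.89, so their order in control skin depends on the transcript length used. Each of the 3 receptor genes and *Csf1* stood far above the remaining ligands in control skin, and among those 6 ligands every neighbour in the order, from *Il11* at 0.215 to *Csf3* at 0.0154 CPM per kilobase, overlapped the next.

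In *Supt6*-KO skin the range of levels was much narrower. These levels were not corrected for the length trend. In that trend the shortest bin, with *Csf2* and *Csf3*, was higher, and the longest, with *Il6st*, *Osmr* and *Il6ra*, lower. The log2 fold change of *Csf3* was 7.63 without the length correction and 6.99 with it, and that of *Il6st* -1.12 and -0.14. The part of the trend in the narrower range and in the order below was not tested. The order in CPM per kilobase was *Il6st* (5.41), *Csf3* (3.58), *Osmr* (3.4), *Csf1* (2.12), *Osm* (1.23), *Il6* (1.21), *Il6ra* (0.874), *Csf2* (0.861), *Lif* (0.483) and *Il11* (0.334). *Csf3*, the lowest of the 10 genes in control skin at 0.0154 CPM per kilobase, came to stand next to *Il6st* by its mean, but it ranged over the mice from 1.13 to 7.08 CPM per kilobase, the highest in mouse 3, around the range of *Osmr* of 2.77 to 4.24. Apart from *Osmr* and *Csf1*, each pair of neighbours in this order overlapped over the mice, *Il6* and *Il6ra* included. In the TPM of *Supt6*-KO mouse 4, *Il6* was at 4.88 and *Il6ra* at 1.67, with *Osmr* (4.1), *Csf3* (2.71), *Csf1* (2.17) and *Osm* (2.13) between them, where the controls had 0.21 ± 0.24 and 40.3 ± 10.1 TPM. This mouse had the most *Il6* of its group, at 4.96 CPM against 2.09, 2.59 and 1.74 CPM in mice 1 to 3.

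The other genes of these pathways were taken from fixed lists. Counts of calls in these and the marker lists stand beside 34.1% higher and 36.8% lower among all genes tested. Of the other IL-6 family ligands described here, 4 were tested, of which 2 rose and 2 fell (1 and 2 under either other scaling). *Clcf1*, encoding cardiotrophin-like cytokine, went from 3.14 ± 0.35 to 8.54 ± 4.15 CPM (log2 fold change 1.44, adjusted p = 0.00053). *Ebi3*, a subunit of IL-27, rose (1.26), but with overlap of the groups and not after the length correction (0.32, adjusted p = 0.41). The neurotrophic ligands *Cntf* (-0.82) and *Ctf1* (-0.66) fell. Without *Supt6*-KO mouse 3, *Ctf1* missed the threshold at a similar log2 fold change of -0.63 (adjusted p = 0.052). *Il27* was under the filter, and *Il31* was not analysed here.

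Of the other receptors of the family, 3 of 5 fell and none of these 5 rose (5 fell with library totals alone, 2 with the length correction). *Lifr* went from 55.4 ± 6.83 to 29.4 ± 6.56 CPM (log2 fold change -0.91, adjusted p = 0.00037), which the length correction turned to 0.12 (adjusted p = 0.5). *Il11ra1*, the most abundant of them, went from 107 ± 9.14 to 79.3 ± 18.2 CPM (-0.43, adjusted p = 0.026), and *Cntfr* from 9.59 ± 9.4 to 2.06 ± 1.27 CPM (-2.20). Control 1 held 26.3 CPM of *Cntfr* and the other controls 4.57 to 6.31 CPM, and without it the log2 fold change was -1.37 (adjusted p = 0.0072). The call on *Il11ra1* was lost without control 2, *Supt6*-KO mouse 1 or *Supt6*-KO mouse 4 (log2 fold change -0.39, -0.34 and -0.34, adjusted p = 0.057, 0.08 and 0.055). *Il27ra* and *Il31ra* did not pass the test, at -0.41 and -0.91, though *Il31ra* did without *Supt6*-KO mouse 4 (-1.42, adjusted p = 0.019).

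With TMM factors, 34.1% of all genes tested rose and 36.8% fell. Among the CSF receptors and related ligands, 1 of 9 rose and 4 fell (1 and 5 with library totals alone, 2 and 3 with the length correction). The gene that rose was *Csf3r*, the receptor of G-CSF, from 0.496 ± 0.144 to 8.47 ± 2.99 CPM (log2 fold change 4.08, SE 0.30, adjusted p = 8.7e-07). *Csf1r* fell with its ligands, from 41.9 ± 12.2 to 11.8 ± 3.17 CPM (-1.83, adjusted p = 5.1e-05), and *Il34* from 58.8 ± 5.44 to 19.7 ± 7.16 CPM (-1.58, adjusted p = 9.9e-05). For GM-CSF, the specific chain *Csf2ra* fell (-1.05) and the common chain *Csf2rb* did not pass the test (0.24), though it was higher with the length correction (0.81, adjusted p = 0.00072) and lower with library totals alone (-0.46, adjusted p = 0.041). *Csf2rb2* fell (-0.87), but not with the length correction (-0.34, adjusted p = 0.061), and it is a near-identical copy of *Csf2rb*, and the split of reads between them is uncertain. *Il5*, *Il3ra* and *Il5ra* did not pass the test either, though *Il3ra* did without *Supt6*-KO mouse 2 (0.62, adjusted p = 0.036). *Il3*, at 0 counts in each control, was under the filter.

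**Figure D4:**
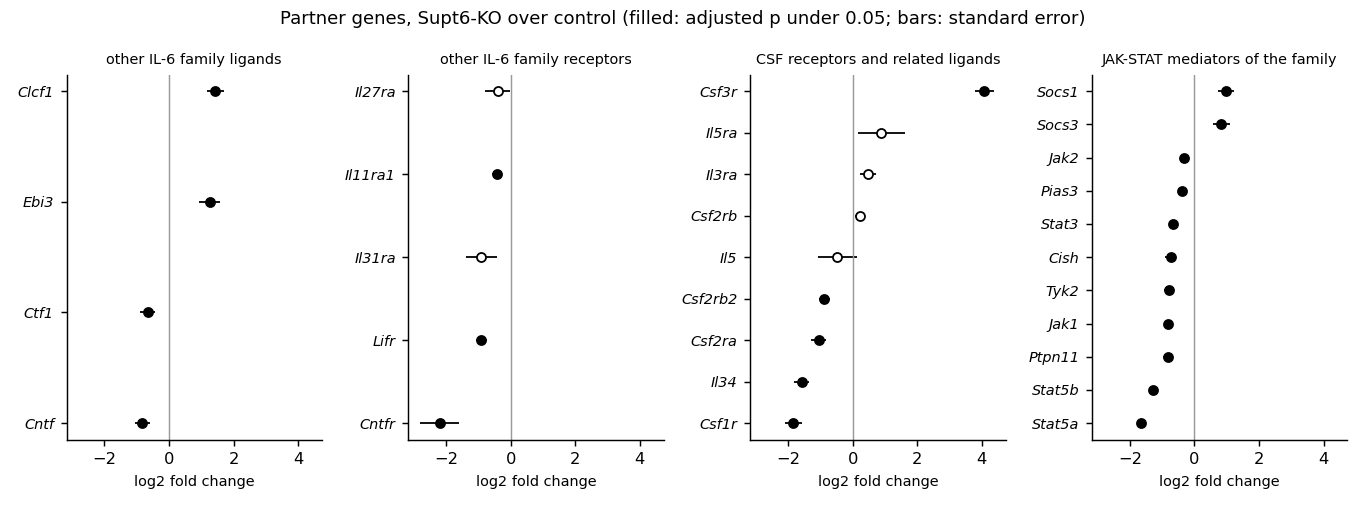
Log2 fold change with standard error of the tested partner genes in 4 lists, with filled points for genes with an adjusted p under 0.05. *Csf3r* stands alone at the right of its list, and the JAK-STAT genes apart from *Socs1* and *Socs3* lie left of 0 with the TMM factors plotted here, though *Stat3* and *Jak2* do not with the length correction.

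Downstream, 9 of 11 JAK-STAT mediators fell and 2 rose with TMM factors, while 4 fell and 3 rose with the length correction, and 9 fell and 0 rose with library totals alone. *Stat3*, the main transcription factor of the pathway, went from 144 ± 24.3 to 91.8 ± 10.0 CPM (log2 fold change -0.65, adjusted p = 0.0021), and *Jak1* from 163 ± 22.4 to 92.9 ± 9.99 CPM (-0.81). The deepest falls were those of *Stat5a* (-1.65) and *Stat5b* (-1.27), which act after the CSF2 receptor. *Jak2* (-0.31), *Tyk2* (-0.79), *Ptpn11* (-0.82), *Cish* (-0.74) and *Pias3* (-0.39) fell as well. Without control 1, *Jak2* missed the threshold at a similar log2 fold change of -0.29 (adjusted p = 0.052). Feedback inhibitors induced by these pathways went both ways, since *Cish* is one as well. Those that rose were *Socs3*, from 17.2 ± 6.18 to 30.7 ± 7.2 CPM (0.83, adjusted p = 0.012) and *Socs1*, from 2.1 ± 0.243 to 4.14 ± 1.29 CPM (0.98, adjusted p = 0.0034), with overlap of the groups for each. With the length correction *Stat3* was at 0.11 (adjusted p = 0.51) and *Jak2* at 0.28 (adjusted p = 0.015), while *Stat5a* and *Stat5b* still fell. *Tyk2* (-0.24), *Ptpn11* (-0.14) and *Pias3* (-0.3) then missed the threshold.

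Of 15 known STAT3 target genes, *Socs3* included, 9 rose and none of these 15 fell, where 34.1% of all genes tested rose and 36.8% fell. The median log2 fold change was 0.83 against -0.07 over all genes tested. Library totals alone gave 4 higher and 6 lower (median 0.18 against -0.76), and the length correction 7 higher and 2 lower (median 0.50 against 0.03). With a mouse left out, *Lrg1* was called lower without control 3 (-0.54) or *Supt6*-KO mouse 4 (-0.57). *Cebpd* was called lower without *Supt6*-KO mouse 2 (-0.31), and *Pim1* higher without *Supt6*-KO mouse 4 (0.29). The acute-phase gene *Saa3* went from 0.178 ± 0.201 to 65.1 ± 31 CPM (log2 fold change 8.49, adjusted p = 7.5e-07, and 9.37 without control 1) and *Saa1* from 0.151 ± 0.122 to 2.9 ± 2.14 CPM (4.22, adjusted p = 0.00041), the latter with overlap. The most abundant of the list, *Mcl1*, a survival factor, went from 313 ± 29.1 to 414 ± 38.6 CPM (0.40, adjusted p = 0.014), which library totals alone turned to -0.30. NF-κB and other factors also act on several of these genes, so that the list is not specific to STAT3.

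Markers of the cells that make or answer these cytokines changed as well. Of 14 neutrophil markers tested, 12 rose, *Csf3r* among them, and 1 fell (10 and 1 with library totals alone, 12 and 2 with the length correction). Their summed level went from 20.6 ± 2.42 to 116 ± 54.6 CPM. It was 85.5, 103, 196 and 78.4 CPM in *Supt6*-KO mice 1 to 4, highest in mouse 3, which also had the most *Csf3*, and lowest in mouse 4, which had the most *Osm* (4.24 CPM) and *Il6* (4.96 CPM). *Mmp9*, one of the 12, lost its call in 5 of the 9 fits that left out a mouse. The most abundant marker of *Supt6*-KO skin, *Clec4d*, went from 0.352 ± 0.253 to 34.7 ± 18.9 CPM and *Trem1* from 0.0542 ± 0.077 to 7.75 ± 2.3 CPM. The defining marker *Ly6g*, one of the 12, rose (log2 fold change 4.56, adjusted p = 0.0076, and 5.76 without control 2) but from 1 count over the controls to 20 over the *Supt6*-KO mice, of which 15 were in mouse 3 and 0 in mouse 2. *Mpo*, a gene of granule formation in immature cells, fell from 0.354 ± 0.223 to 0.0104 ± 0.0209 CPM, the latter from 1 count in mouse 1. Its log2 fold change was -4.62, and -6.52 without that mouse. *Elane* was under the filter, and *Ltf* was at 0 in each control and at 0.314 ± 0.218 CPM in *Supt6*-KO skin. The part of these cells in the rise of *Csf3*, *Osm* and *Il6* was not tested.

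Of 12 monocyte and macrophage markers, 10 rose (5 with library totals alone, 6 with the length correction) and *Csf1r* was the single one to fall. The call on *Adgre1*, one of the 10, was lost in 6 of the 9 fits that left out a mouse. *Lyz2* went from 92.9 ± 18.5 to 641 ± 207 CPM. The summed level, most of it *Lyz2* in *Supt6*-KO skin, went from 255 ± 76.0 to 934 ± 195 CPM. The lowest *Supt6*-KO sum was in mouse 4 (737 CPM), while *Csf1* and *Il34* fell. Of 8 Langerhans and dendritic cell markers 7 fell, from a summed 1150 ± 96.1 to 244 ± 122 CPM, and *Cd207*, which defines Langerhans cells, from 47.2 ± 12 to 10.9 ± 7.76 CPM. *Itgax*, one of the 7, lost its call with the length correction (-0.47, adjusted p = 0.2) and in 3 of the 9 fits without a mouse. *Xcr1* rose in that list (1.41), but it missed the threshold with library totals alone (0.71, adjusted p = 0.063). *Cd74*, the most abundant gene of the list in control skin, was at 442 ± 29.0 and 50.3 ± 28.7 CPM.

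Of the T cell markers 1 of 9 rose and 4 fell (1 and 6 with library totals alone, 1 and 5 with the length correction). They summed to 43.3 ± 5.51 CPM in control and 14.1 ± 3.95 CPM in *Supt6*-KO skin, with *Cd3g* as the most abundant in control skin (15.4 ± 2.7 and 2.46 ± 0.964 CPM). *Cd3e* fell most (log2 fold change -4.13), while *Cd4* did not pass the test (0.10) and *Cd8a* rose (1.88). *Cd3d*, one of the 4, lost its call in 5 of the 9 fits that left out a mouse. *Supt6*-KO mouse 1, with the highest *Il6ra* of its group, also had its highest sums for T cell markers (20 CPM) and for Langerhans and dendritic cell markers (408 CPM). The part of these cells in the fall of *Il6ra*, *Csf1r* and *Il34* was not tested.

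Among structural cells, which express *Il6st*, *Osmr*, *Lifr*, *Csf1* and *Il11*, 6 of 8 fibroblast markers fell, with *Col3a1*, the most abundant, not passing the test (2110 ± 941 and 1710 ± 604 CPM), as did 7 of 8 endothelial markers (4 with the length correction, and 6 without *Supt6*-KO mouse 3, where *Tek* was lost), with *Pecam1* at 39.1 ± 9.76 and 18.5 ± 1.55 CPM, and 5 of 7 adipocyte markers, with *Fabp4* at 206 ± 54.7 and 284 ± 59.1 CPM. Of the keratinocyte markers 2 of 9 rose and 4 fell (2 and 5 with library totals alone, 1 and 4 with the length correction), with a summed level of 28700 ± 1270 and 41000 ± 6460 CPM. Without *Supt6*-KO mouse 4, *Dsg3* was called lower (-1.09) and *Krt10* higher (0.42), and without *Supt6*-KO mouse 2 *Krt14* was called higher (0.84). *Krt1* went from 833 ± 159 to 10400 ± 2430 CPM and *Krt15* from 2300 ± 271 to 367 ± 106 CPM. Of 8 mast cell markers 3 rose and none of these 8 fell (2 and 2 under either other scaling, and *Cma1* lost its call in 3 of the 9 fits that left out a mouse), the summed level overlapping at 121 ± 40.4 and 148 ± 19.9 CPM, with *Mcpt4* at 44.2 ± 14.7 and 39.4 ± 7.56 CPM. Among the mast cell markers that rose, *Fcer1a* went from 0.46 ± 0.11 to 6.21 ± 1.83 CPM and *Hdc* from 4.47 ± 1.13 to 17.9 ± 2.39 CPM, each without overlap. The part of these cells in the results on the 10 genes was not tested.

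**Figure D5:**
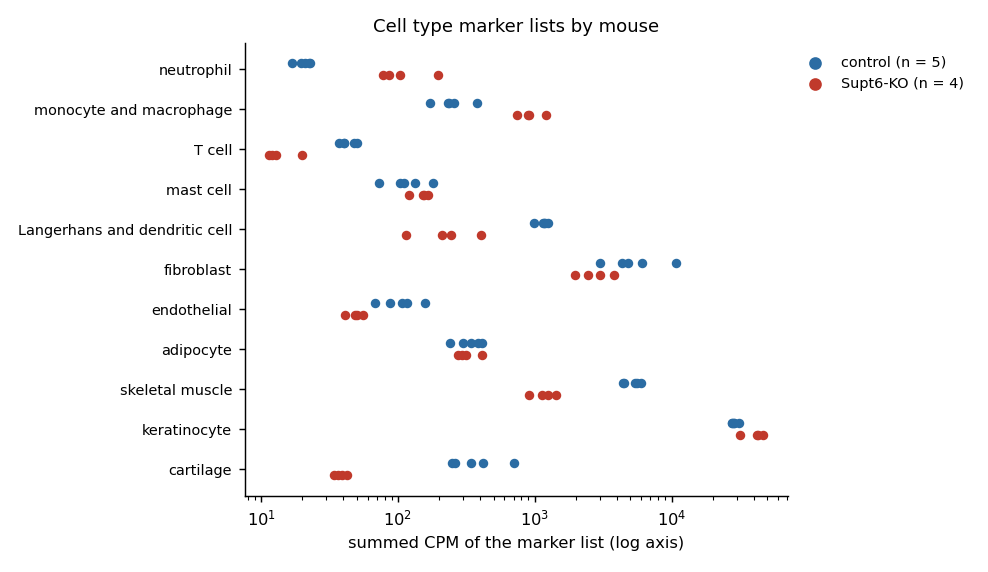
Summed CPM of each cell type marker list in each mouse on a log axis, controls in blue and *Supt6*-KO mice in red. The neutrophil, the monocyte and macrophage and the keratinocyte sums are higher, and the T cell, Langerhans and dendritic cell, endothelial, skeletal muscle and cartilage sums lower, in every *Supt6*-KO mouse than in any control.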

How the data were processed

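The authors aligned reads to mm10, and the processing notes name HISAT, Bowtie2 2.3.4.3, RSEM 1.3.1 and DESeq2 1.4.5. They deposited RSEM estimated counts per gene for 9 mice, not normalized between libraries, and TPM for 6 of them. About 9% of the estimated counts are not whole, and all were rounded. TPM values served for levels alone. The annotation behind the counts is not given in the sources used here. Of 17943 identifiers, 17917 matched a RefSeq gene and 26 did not. Coordinates and lengths are from GENCODE M21 (GRCm38), with lengths for 97.9% of genes. Nothing says that the reads were counted by strand.

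Genes with at least 10 counts over the 9 mice were tested with the quasi-likelihood test of edgeR 4.0.16 (R 4.3.3) with TMM factors and Benjamini-Hochberg adjustment over all 16426 genes. TMM factors were 1.2 to 1.31 in controls and 0.674 to 0.91 in *Supt6*-KO mice. Each log2 fold change is on edgeR's scale. Count ratios, with 0.5 added to each count, were compared by two-sided exact permutation tests (scipy 1.17.1, Python 3.11.15). Exact 95% intervals cover counting error only, and 3 counts in a library is the floor.

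Genes named are the 10 members, *Supt6*, any gene of the ligand, receptor and mediator lists, and in most other lists the most abundant, some with large changes and markers at 0. The gene with the largest change was not named in every list. Further genes (*Krt14*, *Col9a1*, *Col2a1*, *Cd4*, *Ly6g*, *Elane*, *Cd207*, *Mmp9*, *Adgre1*, *Cd3d*, *Cma1*, *Itgax*, *Tek*, *Fcer1a*, *Hdc*, *Dsg3*, *Lrg1*, *Cebpd*, *Pim1*) were named after their values were seen. The members and lists were chosen with earlier results of these data known. The results for 2 genes of the lists are not reported here, and the counts leave them out. Groups come from the labels. Since nothing says whether mice of a group shared a litter or were handled together, p-values measure the spread between these mice.

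Alternatives were DESeq2 1.42.0, other scalings and filters, a length correction, a replicate block and each mouse left out. On counts simulated for this comparison with 16312 genes tested, edgeR recovered 86.7% of 98 genes changed by 1.5 on the log2 scale and 96.1% of 102 changed by 2, and called 9 unchanged genes. Only these 98 and 102 genes were changed. They were drawn from genes with a higher mean count, and no length trend was added. In the data 71.0% of the genes tested were called, so these rates do not carry over to the calls above or to genes with few counts. Receptor protein motifs, single cells, ChIP and cultured human cells were not analysed here.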

Additional observations from a re-analysis of the deposited data

Results flagged for a closer look

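In all, 6 of 54 groups of values, by gene, ratio or marker list, held a mouse far from the rest of its group, where chance gives about 1 in 20 groups, or 2.7 of 54. *Il6* reached 0.321 CPM in control 1, where the median of the controls was 0.0811 CPM, a difference of a few counts. *Osm*, with 1 count, was at 0.027 CPM in control 4, where the median was 0.0802 CPM. *Il6ra* stood at 12.7 CPM in *Supt6*-KO mouse 1, against a median of 6.0 CPM. The log2 ratio of *Il6ra* to *Il6st* was -2.01 in the same mouse, against a median of -2.94. The summed T cell markers were at 20 CPM in that mouse too, against a median of 12.5 CPM. The summed keratinocyte markers were at 30900 CPM in control 4, against a median of 28400 CPM.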

How the results depend on the processing

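The calls on *Il6*, *Osm*, *Lif*, *Csf1*, *Csf2*, *Csf3*, *Il6ra* and *Supt6* kept their direction and stayed past the threshold under every alternative that tested them. Library totals alone called 2771 genes higher instead of 5608 and 8970 lower instead of 6050, and *Osmr* lower, at -0.84. The length correction ended the call on *Il6st* (-0.14) and reversed *Osmr* (0.49), which raised the number of members called higher to 6 and lowered that called lower to 2. Requiring 10 counts or more from each mouse left 1 member called higher, *Lif*, because *Il6*, *Il11*, *Osm*, *Csf2* and *Csf3* were then not tested, and with filterByExpr 4 were, *Csf2* not being tested. In the lists, the length correction and library totals changed counts of calls in most lists, and by over 1.5 times in those of STAT3 target genes, JAK-STAT mediators, CSF receptors and macrophage, endothelial and mast cell markers, among others. DESeq2 called the same numbers of members, 5 higher and 3 lower.

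Leaving out each mouse in turn kept 5 members higher and 3 lower each time. For the ratios it gave 0.83 to 1.02 for *Osmr*/*Il6st* and -2.55 to -2.22 for *Il6ra*/*Il6st*, on the log2 scale. The adjusted p of these 2 ratios over their alternatives was 0.0397 to 0.0893, since fewer mice raise the smallest p that the exact test can give. *Csf1*/*Csf1r* ranged from 0.35 to 0.65, and without control 3 it passed the threshold (adjusted p = 0.0476). *Osmr*/*Lifr* ranged from 0.49 to 0.96 and *Csf1*/*Il34* from 0.03 to 0.52.

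Mice with the same number share only that number. The deviations of the 4 same-numbered pairs correlated at -0.0066 to 0.197, mean 0.102, against -0.0202 for the 16 other pairs. A fit with the replicate number as a block again called 5 members higher and 3 lower, with 5251 genes higher and 5800 lower over the whole table, and gave 4.43 for *Il6*, 7.27 for *Csf3*, -3.41 for *Il6ra*, -1.01 for *Il6st* and -0.19 for *Osmr*.

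Depth limits the values of *Csf3*, *Osm*, *Il6* and *Csf2* in control skin, which rest on 4, 13, 20 and 23 counts over 5 libraries.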
